A study of Homo sapiens with 24 samples.

Results

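The genes described here are the D cyclins, their kinases CDK4 and CDK6, and the inhibitors of cyclin-dependent kinases (CDK) CDKN1A, CDKN1B, CDKN1C, CDKN2C and CDKN2D. They were chosen by name as 10 genes, and every probe set that the platform annotation assigned to 1 of these symbols alone was taken. That gave 25 probe sets for 9 of the 10 genes, out of 19775 genes named by such probe sets on the array. No probe set was assigned to CDKN2C in this way, and CDKN2C was not analysed here.

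RNA was measured on 24 Affymetrix U133 Plus 2.0 arrays. The 4 established prostate cancer lines LNCaP, VCaP, PC3 and NCI-H660 were each treated for 24 hours with vehicle (DMSO), 0.5 µM or 10 µM I-BET762 (GSK525762A), with 2 independent biological replicates of each. I-BET762 blocks the acetyl-lysine-binding bromodomains of the BET proteins, which bring transcription factors and elongation factors to acetylated chromatin. The question was how the transcripts of the G1 machinery responded to this inhibitor, and whether lines of different origin responded alike. LNCaP and VCaP express the androgen receptor and luminal genes, PC3 is androgen-independent and lacks p53, and NCI-H660 comes from a neuroendocrine prostate cancer. Each line is a single established line, so differences between lines describe these lines only.

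In G1, a D cyclin (CCND1, CCND2 or CCND3) binds CDK4 or CDK6, and the active kinase phosphorylates the RB protein, which then releases E2F transcription factors to switch on S phase genes. INK4 proteins such as p18 (CDKN2C) and p19 (CDKN2D) bind CDK4 and CDK6 and keep D cyclins away. The CIP/KIP proteins p21 (CDKN1A), p27 (CDKN1B) and p57 (CDKN1C) bind complete cyclin-CDK complexes and inhibit above all those that contain CDK2. CCND1, an androgen- and mitogen-responsive gene, and p27 are often altered in prostate cancer.

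The values are MAS5 signals, a linear intensity that sums up the probes of a probe set. Signals of different probe sets have no common scale, so levels are compared here only within a probe set. A mean signal of 100 was used as a detection floor. A change was called when limma's adjusted p (Benjamini-Hochberg over 54613 probe sets) was under 0.1 and the treated or the vehicle group reached the floor. Changes are differences of mean log2 signal, and the fold given is 2 raised to that difference. Median signals of the arrays lay between 72.2 and 100.3, and replicate arrays correlated with r between 0.934 and 0.953 over all probe sets. Fewer cells with a transcript and less RNA per cell cannot be told apart in such bulk samples.

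The ETS genes went against 2 of the labels. ERG, the ETS factor known to be fused to TMPRSS2 in VCaP, averaged 6984 ± 142 in vehicle on the LNCaP-labelled arrays and 18.1 ± 2.78 on the VCaP-labelled arrays (SD, n = 2 each). ETV1, the ETS factor known to be rearranged in LNCaP, averaged 43.0 ± 14.8 on the LNCaP-labelled arrays and 375 ± 45.9 on the VCaP-labelled arrays (SD, n = 2 each). The labels were kept as given, and they are called the LNCaP-labelled and VCaP-labelled arrays throughout, since which line is which has not been settled. The luminal genes KLK3, TMPRSS2 and HOXB13 reached the floor on both sets of arrays, and the neuroendocrine genes CHGA, SYP, INSM1 and NCAM1 all reached it in NCI-H660. In PC3 1 of the 3 luminal genes, HOXB13, reached the floor, and of the 4 mesenchymal or basal markers CD44 and VIM averaged 6249 ± 436 and 1821 ± 25.0, while KRT5 and KRT14 stayed under the floor at 89.2 ± 11.2 and 7.70 ± 0.438 (SD, n = 2). Of these 4 markers, 3 (all but KRT5) reached the floor in vehicle on the LNCaP-labelled arrays.

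The promoter of CDK4 and that of CDKN2D are shown because these genes were called in more than 1 line and always in a single direction, CDK4 lower and CDKN2D higher. The sequences are the 250 bases before the annotated RefSeq start, 5′ to 3′ on the gene's strand, in GRCh38.p14, at chr12:57752311-57752560 (CDK4, minus strand) and chr19:10568980-10569229 (CDKN2D, minus strand). Capitals mark the E-box CACGTG, the palindrome that MYC with its partner MAX and related factors bind.
CDK4: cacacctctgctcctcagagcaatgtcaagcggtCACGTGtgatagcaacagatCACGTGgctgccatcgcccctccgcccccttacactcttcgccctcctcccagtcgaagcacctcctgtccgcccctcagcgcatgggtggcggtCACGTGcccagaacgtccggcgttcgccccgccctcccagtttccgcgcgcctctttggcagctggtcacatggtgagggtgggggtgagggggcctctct
CDKN2D: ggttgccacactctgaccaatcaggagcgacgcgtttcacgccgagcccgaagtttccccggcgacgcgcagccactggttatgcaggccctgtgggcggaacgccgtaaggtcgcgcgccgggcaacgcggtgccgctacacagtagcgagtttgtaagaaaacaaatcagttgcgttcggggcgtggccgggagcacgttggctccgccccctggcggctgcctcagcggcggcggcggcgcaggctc
The CDK4 window holds 3 E-boxes, which start 216, 196 and 101 bases before the gene start, and the CDKN2D window holds 0. Of 35116 promoter windows of the same length, 6.34% hold the E-box and 0.0797% hold it at least 3 times. On both strands, the GC box GGGCGG was found 3 times in the CDK4 window and 2 times in that of CDKN2D, and 42.6% of all windows hold it. The CCAAT box CCAAT was found 0 times in the CDK4 window and 1 time in that of CDKN2D, and 32.0% of all windows hold it. A match of letters describes the sequence and is not a measured binding site, and whether the E-box goes with the direction of a change was not tested. Windows were also listed for CCND3, CDK6, CDKN1A and CDKN1B, and none of them holds CACGTG. CDK6 was also called lower, in PC3 at 10 µM. Of the 3 windows of CDKN2C, which was not measured, 2 hold CACGTG, at 220 and 69 bases before the start.

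**Figure D1:**
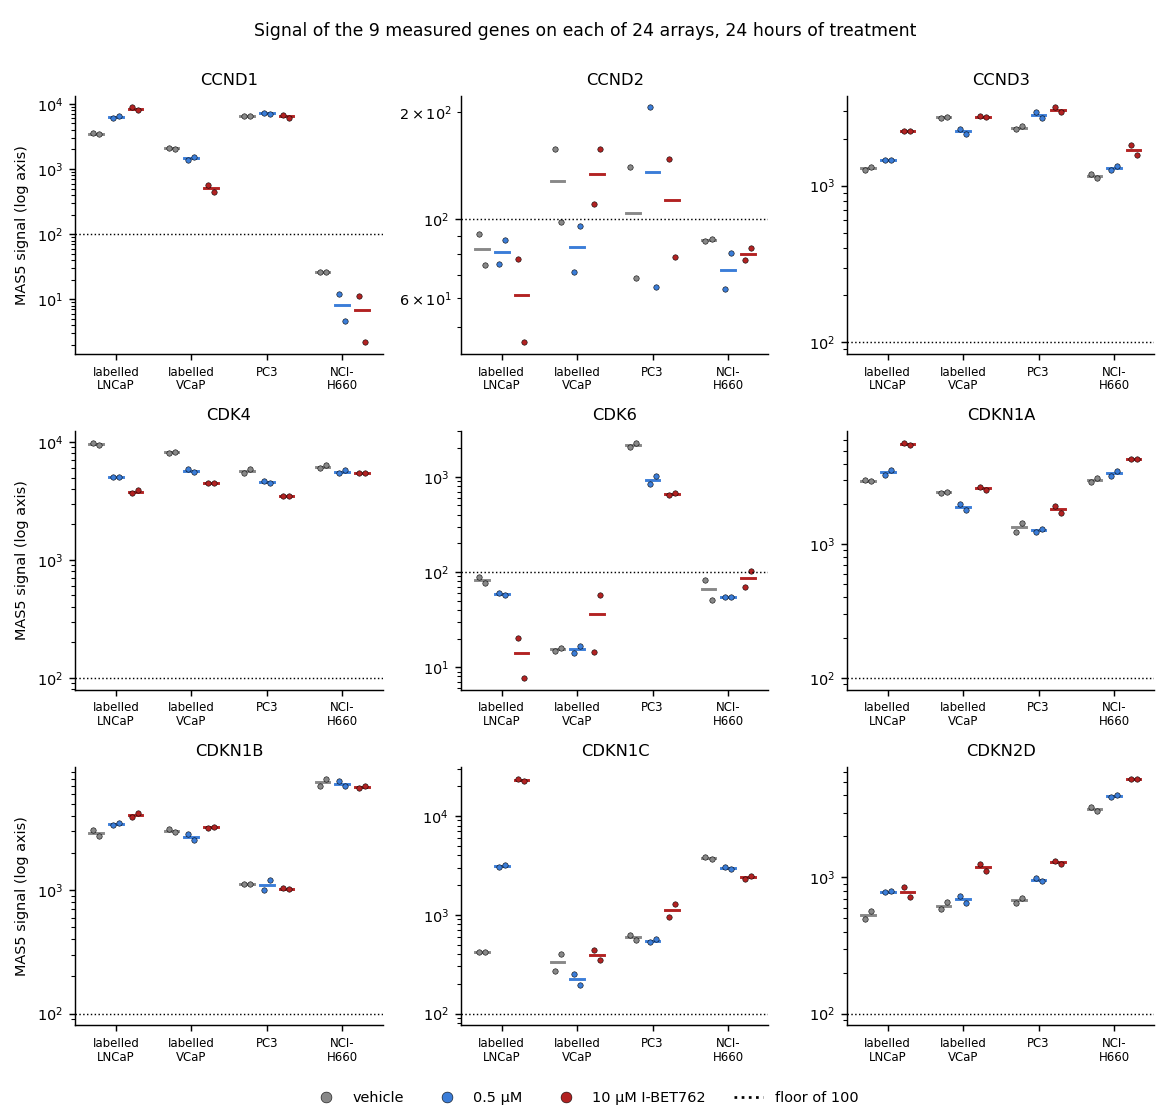
MAS5 signal (log axis) of the 9 measured genes, each by its main probe set, on every array. Points are single arrays, bars are the means of 2 arrays, colours are vehicle, 0.5 µM and 10 µM I-BET762, and the dotted line is the floor of 100. CCND1 lies higher at each higher concentration on the LNCaP-labelled arrays and lower on the VCaP-labelled arrays, the CDK6 group means lie above the floor in PC3 alone, and CDKN1C on the LNCaP-labelled arrays reaches 22637 and 23777 at 10 µM.

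CCND1, which encodes cyclin D1, lay on chr11:69641156-69654474 in GRCh38.p14 and was measured by 2 probe sets. In the luminal lines it moved in opposite directions. On the LNCaP-labelled arrays its main probe set read 3571 and 3425 in vehicle, 5999 and 6590 at 0.5 µM, and 8848 and 7973 at 10 µM. On the VCaP-labelled arrays it read 2123 and 2051 in vehicle, 1385 and 1525 at 0.5 µM, and 574 and 452 at 10 µM. In both lines, no array of one concentration overlapped with those of another. The fall at 10 µM on the VCaP-labelled arrays was 4.10-fold (log2 change −2.03 ± 0.54 SE, limma adjusted p = 0.0179, both treated arrays below both vehicle arrays), though without the second 10 µM array of that line the adjusted p was 0.110. The change at 10 µM on the LNCaP-labelled arrays was 1.26 ± 0.54 on the log2 scale and missed the threshold (limma adjusted p = 0.117), but passed it when any 1 of the treated NCI-H660 arrays was left out (adjusted p over all single arrays 0.00753 to 0.298). At 0.5 µM the changes were 0.85 ± 0.54 on the LNCaP-labelled arrays (limma adjusted p = 0.387) and −0.52 ± 0.54 on the VCaP-labelled arrays (limma adjusted p = 0.696).

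The second CCND1 probe set showed the same split. It read 1713 and 1690 in vehicle, 4274 and 4256 at 0.5 µM, and 8852 and 9002 at 10 µM on the LNCaP-labelled arrays. The rise at 10 µM was 5.25-fold (log2 change 2.39 ± 0.49 SE, limma adjusted p = 0.00240), and that at 0.5 µM was 1.33 ± 0.49 on the log2 scale, just short of the threshold (limma adjusted p = 0.103). The VCaP-labelled arrays read 767 and 929 in vehicle, 787 and 731 at 0.5 µM, and 392 and 346 at 10 µM, a log2 change of −1.20 ± 0.49 at 10 µM (limma adjusted p = 0.128). The 2 probe sets thus gave the same direction at 10 µM in both lines, with a larger upward and a smaller downward change by the second.

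The opposite direction was tested as the difference of the responses. At 10 µM the response on the LNCaP-labelled arrays exceeded that on the VCaP-labelled arrays by 3.30 ± 0.76 on the log2 scale (limma adjusted p = 0.0174), and by 3.59 ± 0.69 with the second probe set (limma adjusted p = 0.00624). Leaving out 1 array at a time kept the first value between 3.13 and 3.47, with adjusted p between 0.000639 and 0.0634. At 0.5 µM the difference was 1.37 ± 0.76 (limma adjusted p = 0.476). That the CCND1 directions were opposite was known when the gene was taken up, so this test is a description of the size and its error and not independent evidence.

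In PC3 no CCND1 change was called, with 6488 and 6575 in vehicle, 7174 and 7090 at 0.5 µM, and 6798 and 6129 at 10 µM. The log2 change at 10 µM was −0.02, with a 95% interval of −1.18 to 1.14, so a change of up to about this size was not detectable in the shared fit. In NCI-H660 the main probe set lay under the floor on every array, with 26.4 and 26.0 in vehicle, 11.9 and 4.70 at 0.5 µM, and 11.3 and 2.20 at 10 µM. Vehicle signal on the LNCaP-labelled arrays was therefore at least 35.0-fold, and on the VCaP-labelled arrays at least 20.9-fold, that of NCI-H660, with the NCI-H660 group set to the floor. In vehicle PC3 was highest, 3.13-fold above the VCaP-labelled arrays (limma adjusted p = 0.0299), while neighbours in the order PC3, LNCaP-labelled and VCaP-labelled were not called different in the shared fit (adjusted p = 0.239 and 0.364).

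The NCI-H660 groups entered the standard error of CCND1, since the fit shares 1 variance over all 12 groups and the signals of 4.70 and 11.9, or 2.20 and 11.3, are far apart on a log scale. With the NCI-H660 arrays left out of the fit, an alternative chosen after seeing the data, the CCND1 changes on the LNCaP-labelled arrays were called at both concentrations (adjusted p = 0.00363 and 0.000102), the fall on the VCaP-labelled arrays at 0.5 µM was called as well (adjusted p = 0.0529), and so was the difference at 0.5 µM (adjusted p = 0.00820). The vehicle signals were also called different there between PC3 and the LNCaP-labelled arrays (1.87-fold, adjusted p = 0.000479) and between the LNCaP-labelled and the VCaP-labelled arrays (1.68-fold, adjusted p = 0.00205). The fold changes themselves were the same in that fit.

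**Figure D2:**
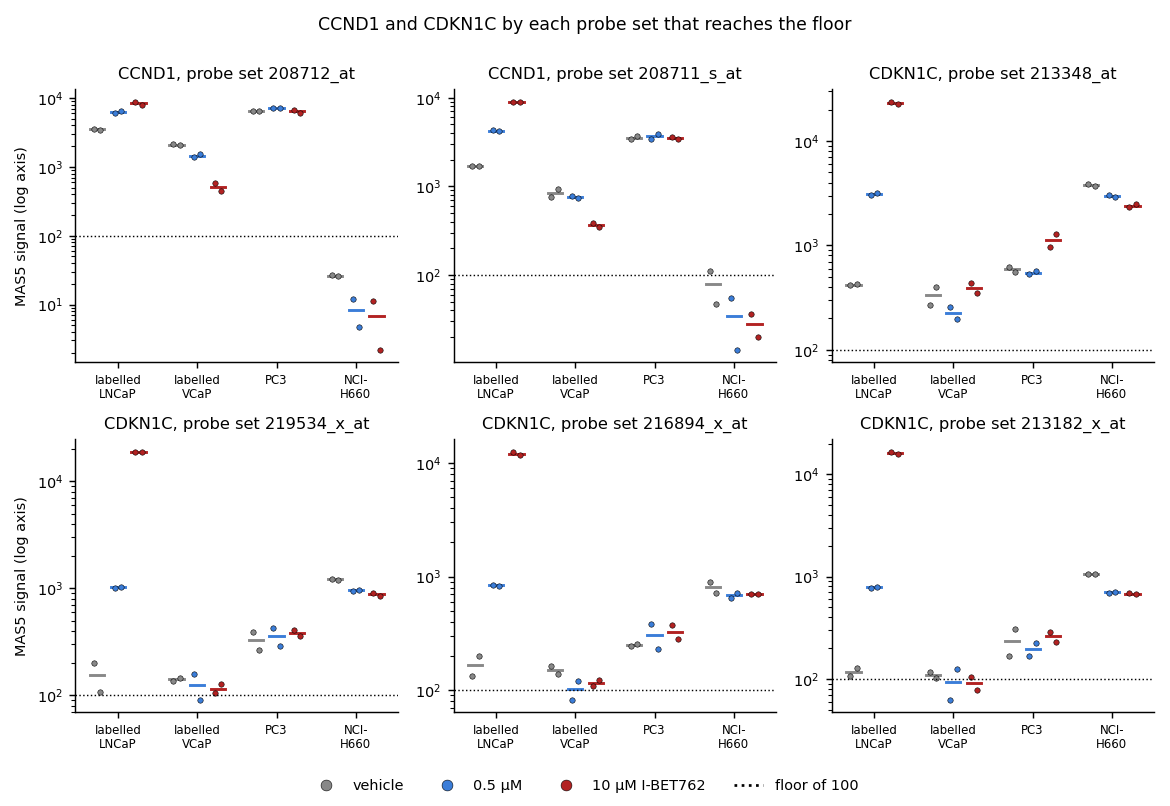
MAS5 signal (log axis) of the 2 CCND1 probe sets and of the 4 CDKN1C probe sets that reach the floor of 100, on each of the 24 arrays; points are arrays, bars means of 2, colours the concentrations. Both CCND1 probe sets part at 10 µM between the LNCaP-labelled arrays and the VCaP-labelled arrays, and all 4 CDKN1C probe sets reach 11723 or more at 10 µM on the LNCaP-labelled arrays.

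CCND2, which encodes cyclin D2, was near or under the floor everywhere. Of its 4 probe sets 1 reached the floor, with group means between 61.3 and 136 and replicate arrays as far apart as 206 and 64.7 in PC3 at 0.5 µM. The other 3 stayed under it in every group. None of its changes was called, and at these signals a change could not be resolved.

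CCND3, which encodes cyclin D3, rose at 10 µM in 3 of the 4 lines. It read 1268 and 1317 in vehicle, 1452 and 1466 at 0.5 µM, and 2230.1 and 2237 at 10 µM on the LNCaP-labelled arrays, a 1.73-fold rise at 10 µM (log2 change 0.79 ± 0.10 SE, limma adjusted p = 6.22e-05). NCI-H660 read 1180.3 and 1122 in vehicle, 1267 and 1335 at 0.5 µM, and 1811 and 1565 at 10 µM, a 1.46-fold rise at 10 µM (log2 change 0.55 ± 0.10, limma adjusted p = 0.00292). In both lines the 10 µM arrays lay above all others, and 10 µM was also higher than 0.5 µM (limma adjusted p = 0.00295 and 0.0903). PC3 read 2296 and 2406 in vehicle, 2942 and 2725 at 0.5 µM, and 3165 and 2950.3 at 10 µM, a log2 change of 0.38 ± 0.10 at 10 µM (limma adjusted p = 0.0301). That call was lost without the first 10 µM or the first vehicle array of PC3 (adjusted p up to 0.155).

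CCND3 was not called higher on the VCaP-labelled arrays. They read 2704 and 2754 in vehicle, 2309 and 2129 at 0.5 µM, and 2768 and 2744 at 10 µM. The fall at 0.5 µM was called by a narrow margin (log2 change −0.30 ± 0.10, limma adjusted p = 0.0999) and was lost under leaving out most single arrays (adjusted p up to 0.389), and at 10 µM the change was 0.01 ± 0.10, with a 95% interval of −0.21 to 0.24. The response at 10 µM was 0.78 ± 0.15 larger on the LNCaP-labelled arrays (limma adjusted p = 0.00510), and that on the VCaP-labelled arrays was 0.53 ± 0.15 smaller than in NCI-H660 (limma adjusted p = 0.0328, lost without the first 10 µM or second vehicle array of NCI-H660, adjusted p up to 0.135). Its difference from PC3 at 10 µM, −0.36 ± 0.15, was not called (limma adjusted p = 0.187). At 0.5 µM that from PC3 was called (−0.57 ± 0.15, limma adjusted p = 0.0645, up to 0.189 without single arrays of these lines), and those from the LNCaP-labelled arrays and NCI-H660 were not (limma adjusted p = 0.125 and 0.107). In vehicle, the VCaP-labelled arrays and PC3 had the higher CCND3 signals and did not differ from each other beyond their error (adjusted p = 0.134), nor did the LNCaP-labelled arrays and NCI-H660 (adjusted p = 0.233). A second CCND3 probe set was under the floor in every group.

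CDK4, the kinase partner of the D cyclins in most epithelial cells, lay on chr12:57747727-57752310 and had 1 probe set. It fell in 3 lines at both concentrations. On the LNCaP-labelled arrays it read 9799 and 9437 in vehicle, 5087 and 5089 at 0.5 µM, and 3692 and 3895 at 10 µM. That was a 1.89-fold fall at 0.5 µM (log2 change −0.92 ± 0.09 SE, limma adjusted p = 2.64e-05) and a 2.54-fold fall at 10 µM (log2 change −1.34 ± 0.09, limma adjusted p = 2.06e-07). The VCaP-labelled arrays read 8089 and 8249.9 in vehicle, 5866 and 5600 at 0.5 µM, and 4536 and 4485 at 10 µM, falls of 1.43-fold and 1.81-fold (limma adjusted p = 0.00329 and 2.19e-05). The 3 groups of each line were separate from one another, and 10 µM was lower than 0.5 µM in both (limma adjusted p = 0.0143 and 0.0674).

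In PC3, CDK4 read 5501 and 5883 in vehicle, 4643 and 4468 at 0.5 µM, and 3455 and 3516 at 10 µM. It fell 1.63-fold at 10 µM (log2 change −0.71 ± 0.09, limma adjusted p = 0.000272). The 1.25-fold fall at 0.5 µM (limma adjusted p = 0.0819) was lost under leaving out most single arrays, with adjusted p up to 0.332. NCI-H660 read 6034 and 6337 in vehicle, 5409 and 5829.9 at 0.5 µM, and 5426 and 5409 at 10 µM. Its CDK4 changes of −0.14 ± 0.09 and −0.19 ± 0.09 were not called (limma adjusted p = 0.615 and 0.224), although every treated array lay below both vehicle arrays, and under quantile normalization that at 10 µM was (−0.29, adjusted p = 0.0440).

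The size of the CDK4 response differed between lines. At 10 µM the response on the LNCaP-labelled arrays lay below that on the VCaP-labelled arrays by 0.49 ± 0.13 on the log2 scale, below PC3 by 0.64 ± 0.13 and below NCI-H660 by 1.15 ± 0.13 (limma adjusted p = 0.0368, 0.00686 and 6.92e-05), and the first of these was lost without the first 10 µM or first vehicle array of either line (adjusted p up to 0.116). The responses of the VCaP-labelled arrays and of PC3 also lay below that of NCI-H660, by 0.67 ± 0.13 and 0.52 ± 0.13 (limma adjusted p = 0.00516 and 0.0472). With the replicate number as a block, the difference between PC3 and NCI-H660 was lost (limma adjusted p = 0.123). That between the LNCaP-labelled and VCaP-labelled arrays was lost with the block (0.101), with each array centred on its median (0.174) and with both lines fitted without the others (0.108). Vehicle signals ran in the order LNCaP-labelled, VCaP-labelled, NCI-H660 and PC3, of which NCI-H660 and PC3 did not differ beyond their error (adjusted p = 0.351). With the NCI-H660 arrays left out of the fit, the LNCaP-labelled and VCaP-labelled vehicle signals were not called different either (1.18-fold, limma adjusted p = 0.12). The order of the vehicle means was not that of the falls. NCI-H660 had the smallest change, with a vehicle mean above that of PC3. The vehicle mean also enters each change, so a link between the 2 was not tested. At 10 µM the means on the LNCaP-labelled arrays, on the VCaP-labelled arrays and in PC3 were 3793, 4510.4 and 3486.

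CDK6, the second D cyclin kinase, was measured by 7 probe sets, and the group means of its main probe set reached the floor in PC3 only. There it read 2034 and 2263 in vehicle, 847 and 1019 at 0.5 µM, and 643 and 678 at 10 µM, with no overlap between the 3 groups. The fall at 10 µM was 3.25-fold (log2 change −1.70 ± 0.52, limma adjusted p = 0.0520), and it was lost when any 1 of the 4 arrays of that comparison was left out (adjusted p up to 0.195). The 2.31-fold fall at 0.5 µM was not called (limma adjusted p = 0.275), but was with 16 added to each signal before the log (adjusted p = 0.0515). On the other arrays CDK6 read between 7.70 and 104, and these dim groups also enter its standard error. Vehicle signal in PC3 was at least 21.5-fold that of each other line. All 7 probe sets gave a lower signal in PC3 at both concentrations than in vehicle, with log2 changes of −0.59 to −2.02 at 10 µM, but they measure the same RNA and the other 6 changes were not called.

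CDKN1A, which encodes p21, the inhibitor best known as a p53 target, rose at 10 µM in the same 3 lines as CCND3. The LNCaP-labelled arrays read 3008 and 2950.4 in vehicle, 3313 and 3585 at 0.5 µM, and 5705 and 5540 at 10 µM, a 1.89-fold rise at 10 µM (log2 change 0.92 ± 0.11, limma adjusted p = 3.54e-05). NCI-H660 read 2940.3 and 3111 in vehicle, 3234 and 3522 at 0.5 µM, and 4319 and 4332 at 10 µM, a 1.43-fold rise (log2 change 0.52 ± 0.11, limma adjusted p = 0.00732). PC3, which lacks p53, read 1227 and 1444 in vehicle, 1226 and 1306 at 0.5 µM, and 1929 and 1723 at 10 µM. Its 1.37-fold rise at 10 µM (log2 change 0.45 ± 0.11, limma adjusted p = 0.0180) was lost without the first 10 µM or the first vehicle array of PC3 (adjusted p up to 0.166).

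On the VCaP-labelled arrays, CDKN1A read 2428 and 2454 in vehicle, 1992 and 1812 at 0.5 µM, and 2686 and 2562 at 10 µM. The 1.28-fold fall at 0.5 µM was called (limma adjusted p = 0.0658), but not without any 1 of the 4 arrays of the comparison (adjusted p up to 0.312). From 0.5 µM to 10 µM it rose by 0.47 ± 0.11 (limma adjusted p = 0.0419), and at 10 µM it differed from vehicle by 0.10 ± 0.11. The response on the LNCaP-labelled arrays exceeded that on the VCaP-labelled arrays by 0.57 ± 0.16 at 0.5 µM and 0.81 ± 0.16 at 10 µM (limma adjusted p = 0.0827 and 0.00638). The call at 0.5 µM was lost with the replicate block (adjusted p = 0.182), with both lines fitted alone (0.162), with median centring (0.407) and without any 1 of the arrays of these lines or of NCI-H660 (up to 0.229). In vehicle NCI-H660 and the LNCaP-labelled arrays were highest and did not differ beyond their error (adjusted p = 0.906), and PC3 was lowest.

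CDKN1B, which encodes p27, moved least of the inhibitors above the floor. It rose 1.39-fold at 10 µM on the LNCaP-labelled arrays, which read 3086 and 2766 in vehicle, 3342 and 3511 at 0.5 µM, and 3918 and 4225 at 10 µM (log2 change 0.48 ± 0.12, limma adjusted p = 0.00977). With each array centred on its median this call was lost (0.35, adjusted p = 0.137). In the other 3 lines the log2 changes lay between −0.16 and 0.10 and none was called. The difference from PC3 and from NCI-H660 at 10 µM was 0.60 ± 0.17 and 0.61 ± 0.17 (limma adjusted p = 0.0406 and 0.0293), and both were lost with median centring (adjusted p = 0.275 and 0.452). Its levels differed far more between lines than with treatment: NCI-H660 averaged 7508 ± 679 in vehicle, the VCaP-labelled arrays 3021 ± 119, the LNCaP-labelled arrays 2926 ± 226 and PC3 1121 ± 9.01 (SD, n = 2 each). NCI-H660 was 6.69-fold above PC3 (limma adjusted p = 1.05e-09), and the VCaP-labelled arrays and LNCaP did not differ beyond their error (adjusted p = 0.833).

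CDKN1C, which encodes p57, had the largest change of the 9 genes. It lay on chr11:2883218-2885775, in an imprinted region where the maternal copy is expressed. On the LNCaP-labelled arrays its main probe set read 417 and 425 in vehicle, 3015 and 3191 at 0.5 µM, and 23777 and 22637 at 10 µM. The rise was 7.37-fold at 0.5 µM (log2 change 2.88 ± 0.19, limma adjusted p = 1.79e-06) and 55.1-fold at 10 µM (log2 change 5.78 ± 0.19, limma adjusted p = 1.71e-09). The step between the concentrations was another 7.48-fold (limma adjusted p = 4.68e-06). Of the other 4 probe sets, 3 rose by 6.21 to 7.12 on the log2 scale at 10 µM and by 2.35 to 2.80 at 0.5 µM, and the remaining one was under the floor in every group.

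No other line came near this. PC3 read 624 and 556 in vehicle, 532 and 566 at 0.5 µM, and 959.6 and 1279 at 10 µM, a 1.88-fold rise at 10 µM (log2 change 0.91 ± 0.19, limma adjusted p = 0.00785). The 3 other probe sets above the floor gave 0.19 to 0.37 there and were not called, so that rise rests on 1 probe set. The VCaP-labelled arrays read 268 and 398 in vehicle, 254 and 195 at 0.5 µM, and 439 and 349 at 10 µM, and neither change was called (log2 change −0.55 ± 0.19 and 0.26 ± 0.19, limma adjusted p = 0.110 and 0.456). In NCI-H660 it ran the other way, with 3835 and 3708 in vehicle, 3038 and 2932 at 0.5 µM, and 2316 and 2495 at 10 µM. The 1.57-fold fall at 10 µM (log2 change −0.65 ± 0.19, limma adjusted p = 0.0422) was lost when any 1 of the 4 arrays of the comparison was left out (adjusted p up to 0.189).

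The CDKN1C response on the LNCaP-labelled arrays exceeded that on the VCaP-labelled arrays by 5.52 ± 0.27, that of PC3 by 4.87 ± 0.27 and that of NCI-H660 by 6.43 ± 0.27 on the log2 scale at 10 µM (limma adjusted p = 6.38e-07, 7.95e-07 and 1.76e-07). In vehicle NCI-H660 was highest, 6.40-fold above PC3, the next (limma adjusted p = 8.98e-08). PC3 was 1.40-fold above the LNCaP-labelled arrays (limma adjusted p = 0.0717), which did not differ from the VCaP-labelled arrays beyond their error (adjusted p = 0.193). With the NCI-H660 arrays left out of the fit, PC3 and the LNCaP-labelled arrays were not called different in vehicle (limma adjusted p = 0.125). Neuroendocrine markers were also present on the LNCaP-labelled arrays, where CHGA, SYP and INSM1 reached the floor in vehicle, at 643 ± 44.4, 149.5 ± 22.7 and 399 ± 4.65, while NCAM1, the fourth of the list, stayed under it at 84.5 ± 8.83 (SD, n = 2). Their part in the CDKN1C result was not tested.

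CDKN2D, which encodes the INK4 protein p19, was the inhibitor called higher at 10 µM in all 4 lines. It lay on chr19:10566460-10568979. Its main probe set on the VCaP-labelled arrays read 586 and 659 in vehicle, 729.5 and 653 at 0.5 µM, and 1255 and 1119 at 10 µM, a 1.91-fold rise at 10 µM (log2 change 0.93 ± 0.12, limma adjusted p = 0.000130). PC3 read 655 and 704 in vehicle, 995 and 935 at 0.5 µM, and 1323 and 1261 at 10 µM, rises of 1.42-fold and 1.90-fold (limma adjusted p = 0.0418 and 0.000321). Every treated array of PC3 lay above both vehicle arrays, yet the call at 0.5 µM was lost without the first 0.5 µM array or either vehicle array of PC3 (adjusted p up to 0.200).

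On the LNCaP-labelled arrays, CDKN2D read 496 and 572 in vehicle, 778 and 790.2 at 0.5 µM, and 855 and 713 at 10 µM. It was 1.47-fold higher at each concentration (limma adjusted p = 0.00860 and 0.00438), and the step between the concentrations was −0.01 ± 0.12 on the log2 scale. The call at 0.5 µM was lost with each array centred on its median (0.37, limma adjusted p = 0.202). Both calls were lost with the line fitted alone (limma adjusted p = 0.173 and 0.113). NCI-H660 read 3274 and 3099 in vehicle, 3912 and 4027 at 0.5 µM, and 5309 and 5264 at 10 µM, a 1.66-fold rise at 10 µM (log2 change 0.73 ± 0.12, limma adjusted p = 0.00142). The line differences in its response were not called in any pair of lines. In vehicle NCI-H660 lay 4.69-fold above PC3, the next (limma adjusted p = 7.48e-09), and neighbours among the other 3 lines did not differ beyond their error (adjusted p = 0.495 and 0.220). A second CDKN2D probe set was under the floor in every group. Averaging it in removed the calls on the LNCaP-labelled arrays, on the VCaP-labelled arrays and in PC3.

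**Figure D3:**
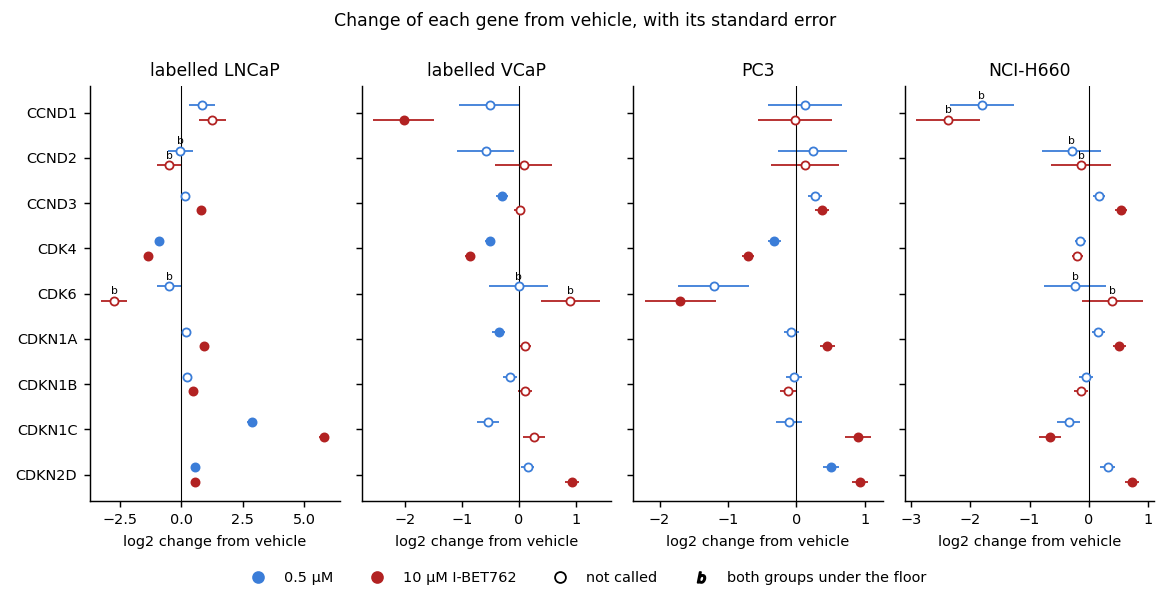
Log2 change from vehicle (points) with its standard error (bars) for the 9 genes in each line, at 0.5 µM and 10 µM; filled points were called, open points were not, and b marks genes with both groups under the floor. The horizontal scale differs between the 4 panels. CDK4 lies left of 0 and CDKN2D right of 0 in every panel, and CCND1 lies on opposite sides for the LNCaP-labelled and the VCaP-labelled arrays.

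Counted over the 9 genes, of which 7 reach the floor on the LNCaP-labelled arrays, limma called 2 higher (CDKN1C and CDKN2D) and 1 lower (CDK4) there at 0.5 µM. Of all probe sets 14.4%, and of all genes that reach the floor 33.9%, were called in that comparison, 17.4% higher and 16.5% lower. At 10 µM it called 5 higher (CCND3, CDKN1A, CDKN1B, CDKN1C and CDKN2D) and 1 lower (CDK4), against 24.5% of probe sets and 53.8% of genes (27.1% higher, 26.7% lower). Among the 8 genes that reach the floor on the VCaP-labelled arrays it called 0 higher and 3 lower at 0.5 µM (CCND3, CDK4 and CDKN1A), against 9.94% of probe sets and 25.0% of genes (11.8% higher, 13.2% lower), and 1 higher (CDKN2D) and 2 lower (CCND1 and CDK4) at 10 µM, against 18.1% and 41.9% (20.1% higher, 21.8% lower). That is 3 and 6 of 7 members above the floor on the LNCaP-labelled arrays and 3 and 3 of 8 on the VCaP-labelled arrays, to be read against those shares of all genes.

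In PC3, where all 9 genes reach the floor, it called 1 higher (CDKN2D) and 1 lower (CDK4) at 0.5 µM, against 4.40% of probe sets and 11.1% of genes (6.66% higher, 4.44% lower), and 4 higher (CCND3, CDKN1A, CDKN1C and CDKN2D) and 2 lower (CDK4 and CDK6) at 10 µM, against 12.7% and 30.2% (16.1% higher, 14% lower). In NCI-H660, where 6 reach it, limma called 0 of the 9 genes at 0.5 µM, against 2.85% of probe sets and 7.64% of genes (4.36% higher, 3.27% lower). Of those 6 genes only CDKN2D had an unadjusted limma p under 0.05, and CCND1, under the floor, had one of 0.00496. At 10 µM limma called 3 higher (CCND3, CDKN1A and CDKN2D) and 1 lower (CDKN1C), against 14.7% and 33.8% (16.9% higher, 16.8% lower). At 10 µM CDK4 was thus called lower on the LNCaP-labelled arrays, on the VCaP-labelled arrays and in PC3, and CDKN2D higher in all 4 lines. NCI-H660 had CCND3 and CDKN1A higher as well and CDKN1C lower, without a called CDK4 change. These counts are to be read against the shares of all genes, and whether the members as a set differ from other genes was not tested. By the main probe sets, only CDKN1C and CDK4 on the LNCaP-labelled arrays, CCND1 on the VCaP-labelled arrays and CDK6 in PC3 passed the stricter rule that also asks for a change of more than 2-fold, CDKN1C at both concentrations and the others at 10 µM. The second CCND1 probe set passed it too on the LNCaP-labelled arrays at 10 µM (log2 change 2.39, limma adjusted p = 0.0024). The stricter rule called 8.35% and 21.7% of genes above the floor on the LNCaP-labelled arrays at 0.5 and 10 µM, 5.57% and 13.4% on the VCaP-labelled arrays, 2.05% and 7.02% in PC3, and 1.49% and 9.17% in NCI-H660.

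Between the concentrations, 10 µM against 0.5 µM, limma called 3 of the 9 genes higher (CCND3, CDKN1A and CDKN1C) and 1 lower (CDK4) on the LNCaP-labelled arrays, against 8.12% of probe sets and 19.7% of genes that reach the floor. It called 3 higher (CDKN1A, CDKN1C and CDKN2D) and 1 lower (CDK4) on the VCaP-labelled arrays, 2 higher (CDKN1A and CDKN1C) and 1 lower (CDK4) in PC3 and 1 higher (CCND3) in NCI-H660, against 3.76%, 0.945% and 2.94% of probe sets. Of genes that reach the floor, 9.91%, 2.16% and 7.32% were called. The CDKN1C steps are those of its main probe set, which averaged 225 and 394 on the VCaP-labelled arrays and 549 and 1119 in PC3. Its other probe sets that reach the floor averaged 125 and 115, 101 and 116, and 92.9 and 91.2 on the VCaP-labelled arrays. In PC3 they averaged 357 and 385, 305 and 326, and 196 and 261. Between the responses of the 2 luminal lines, limma called 2 genes at 0.5 µM and 5 at 10 µM, against 3.49% and 9.86% of probe sets and 8.68% and 21.8% of genes that reach the floor. For the other pairs of lines it called 2 and 4 genes with LNCaP-labelled arrays against PC3 (3.97% and 12.5% of probe sets), 3 and 4 against NCI-H660 (5.86% and 16.9%), 1 and 1 with VCaP-labelled arrays against PC3 (3.20% and 7.95%), 0 and 3 against NCI-H660 (4.66% and 12.7%), and 0 and 2 with PC3 against NCI-H660 (0.714% and 5.18%). Of genes that reach the floor, the shares called in these pairs, in the same order, were higher. They were 8.82% and 26.2%, 12.9% and 33.6%, 7.36% and 17.1%, 10.5% and 26.1%, and 1.69% and 11.3%. In the comparisons with 0 calls, 3 and 1 of the genes that reach the floor had an unadjusted limma p under 0.05.

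Genes linked to the G1 machinery were read from 4 gene lists written from general knowledge, not all of which lie downstream of it. E2F-driven S phase genes, which copy DNA and make its building blocks, had 13 of 14 members with a probe set. All 13 fell on the LNCaP-labelled arrays and on the VCaP-labelled arrays, at both concentrations. Their median log2 change was −1.02 at 0.5 µM and −1.64 at 10 µM on the LNCaP-labelled arrays, against 0.03 over all genes above the floor, of which 16.5% and 26.7% were called lower. The medians on the VCaP-labelled arrays were −1.81 and −2.28, with 13.2% and 21.8% of all genes called lower. MCM5, a subunit of the replicative helicase, averaged 327 ± 87.2 at 10 µM and 2136 ± 159 in vehicle on the LNCaP-labelled arrays, and 166 ± 11.3 and 2349.5 ± 30.1 on the VCaP-labelled arrays (SD, n = 2 each). The fall of these S phase genes therefore ran alongside CCND1 changes of opposite direction.

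In PC3 4 of the 13 S phase genes fell at 10 µM (MCM5, MCM2, RRM1 and MCM7) and 1, TK1, a thymidine salvage kinase, rose, with a median of −0.24, where 14% of all genes above the floor fell and 16.1% rose. In NCI-H660 1 fell (MCM5) and 1 rose (TK1), with a median of −0.12, where 16.8% of all genes fell and 16.9% rose. TK1 averaged 4122 ± 134 at 10 µM and 3314 ± 77.7 in vehicle in PC3, and 2106 ± 66.4 at 10 µM and 1497 ± 45.9 in vehicle in NCI-H660 (SD, n = 2 each). At 0.5 µM 1 fell and 1 rose in PC3, where 4.44% of all genes above the floor fell and 6.66% rose. In NCI-H660 limma called 0 at 0.5 µM, with TK1 nearest to the threshold (adjusted p = 0.109), where 3.27% of all genes fell and 4.36% rose.

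The RB-E2F axis list held 15 genes for E-type and A-type cyclins, CDK2, its activating phosphatase CDC25A, E2F and DP factors and the RB family. On the LNCaP-labelled arrays 8 fell and 1 rose at 0.5 µM, and 9 fell and 1 rose at 10 µM (median −0.47), where 16.5% and 26.7% of all genes above the floor fell. On the VCaP-labelled arrays 10 fell at 0.5 µM and 11 at 10 µM (median −1.20), with none called higher, where 13.2% and 21.8% of all genes fell. In PC3 2 and 7 fell, where 4.44% and 14% of all genes did. In NCI-H660 limma called 0 at 0.5 µM and 2 lower at 10 µM (E2F5 and E2F3), where 3.27% and 16.8% of all genes fell. E2F3, an activating E2F, averaged 256 ± 64.0 at 10 µM and 1956 ± 55.0 in vehicle on the LNCaP-labelled arrays, and 269 ± 35.0 and 821 ± 42.1 on the VCaP-labelled arrays (SD, n = 2 each). CCNA2, the S phase partner of CDK2, fell by 2.34 on the log2 scale at 10 µM on the VCaP-labelled arrays and by 0.37 on the LNCaP-labelled arrays (limma adjusted p = 6.05e-08 and 0.0514).

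**Figure D4:**
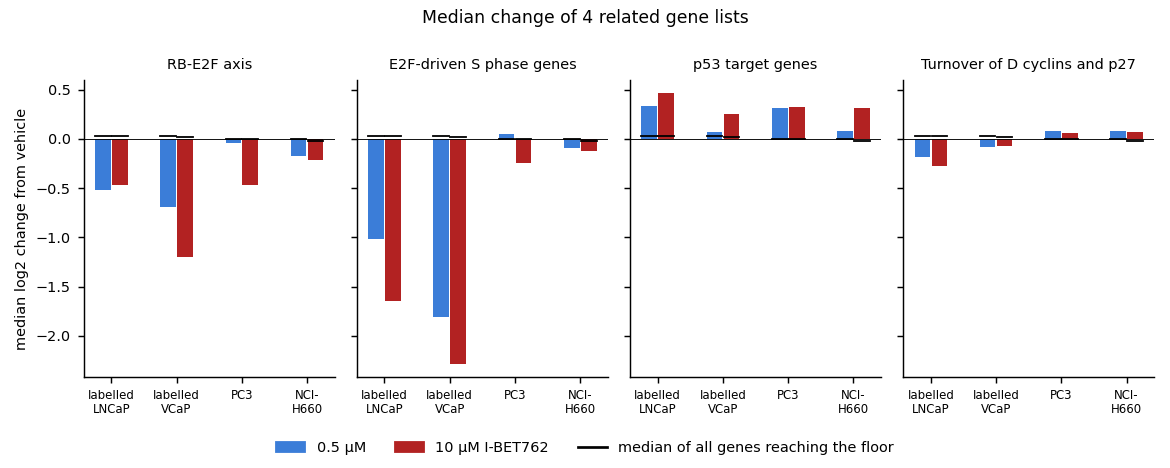
Median log2 change from vehicle of 4 related gene lists in each line (bars, 0.5 µM and 10 µM) and the median over all genes that reach the floor (black lines). The S phase list has its lowest medians on the VCaP-labelled arrays (−1.81 and −2.28), and the turnover list stays within −0.28 and 0.08.

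Of 17 measured p53 target genes, a list chosen because CDKN1A is one, 10 rose and 3 fell at 10 µM on the LNCaP-labelled arrays (median 0.46), 6 rose and 4 fell on the VCaP-labelled arrays (0.25), 7 rose and 4 fell in PC3 (0.32), and 7 rose and 2 fell in NCI-H660 (0.31). Among all genes above the floor 27.1%, 20.1%, 16.1% and 16.9% rose, and 26.7%, 21.8%, 14% and 16.8% fell. SESN1, a stress-induced inhibitor of mTORC1 signalling, rose by 2.07 ± 0.14 on the log2 scale on the LNCaP-labelled arrays and by 0.93 ± 0.14 in PC3 (limma adjusted p = 1.59e-07 and 0.000721). FAS, a death receptor, fell at 10 µM in all 4 lines, by 3.14 on the LNCaP-labelled arrays, 2.01 on the VCaP-labelled arrays, 1.70 in PC3 and 1.48 in NCI-H660 (limma adjusted p = 9.80e-08, 1.09e-05, 0.000122 and 0.000250). Members of the list thus moved in both directions in each line, also in PC3.

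The last list held 11 genes that act on the turnover of D cyclins and p27. SKP2, the F-box protein that marks p27 for degradation, fell at 10 µM in all 4 lines, to 369 ± 69.2 against 615 ± 22.3 in vehicle on the LNCaP-labelled arrays, 265 ± 10.3 against 858 ± 45.1 on the VCaP-labelled arrays, 545 ± 15.4 against 994 ± 50.1 in PC3 and 754 ± 0.376 against 1160.5 ± 12.6 in NCI-H660 (SD, n = 2 each). FBXO4, an F-box protein linked to cyclin D1 turnover, also fell in all 4, by 1.52, 1.13, 1.62 and 1.45 on the log2 scale (limma adjusted p = 1.68e-05, 0.000355, 5.80e-05 and 8.64e-05). The medians of the list lay between −0.28 and 0.08 in the 8 comparisons, and at 10 µM 2 rose and 5 fell on the LNCaP-labelled arrays, 2 and 4 on the VCaP-labelled arrays, 2 and 2 in PC3 and 4 and 3 in NCI-H660. Of all genes above the floor 27.1% rose and 26.7% fell on the LNCaP-labelled arrays, 20.1% and 21.8% on the VCaP-labelled arrays, 16.1% and 14% in PC3, and 16.9% and 16.8% in NCI-H660. Protein turnover itself was not measured here.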

How the data were processed

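RNA from 24 arrays was analysed from the MAS5 signals as deposited, linear intensity values that the authors scaled to a target of 500 per array with Micro Array Suite 5.0, named in the methods and the submitters' processing notes. Depth does not apply to arrays, and 2 arrays per group limit the precision. After leaving out 62 control probe sets, 54613 were tested. Gene names came from the platform annotation (41091 probe sets with 1 symbol, 1801 with several, not used), and each gene was represented by the probe set of highest mean signal on the log2 scale, avoiding those ending in _x_at. Gene positions and promoters are from RefSeq (GRCh38.p14).

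Log2 signals went into limma 3.58.1 (R 4.3.3) as 1 model of 12 group means (12 residual and 1.29 prior degrees of freedom), with Benjamini-Hochberg adjustment per contrast. The floor of 100 stands in for the authors' detection calls. P-values rest on the spread between the 2 biological replicates of a group, pooled over all 12 groups and combined with the prior. They do not rest on the spread of the compared groups alone. Intervals are 95%. No batch was named in the labels, and none could be tested.

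The members and lists were chosen with earlier results of these data known, the CCND1 directions included. Named are all members, up to 4 genes per list with the largest called change in a comparison, and the 3 genes most alike to a member over the 12 group means. Alternatives were quantile normalization, no floor or 200 as floor, an intensity trend, centring on array medians, separate fits, a replicate block, adjusted p under 0.05, other probe set rules, 16 added before the log, leaving out each array in turn (which takes a lone array to vary as much as other groups do) and, chosen after seeing the data, leaving out NCI-H660. The replicate numbers did not pair the arrays.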

Additional observations from a re-analysis of the deposited data

Results flagged for a closer look

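The response to I-BET762 differed between pairs of lines, by limma's test of the difference itself, in 27 cases among the 9 genes; differences are in log2 units, the first-named line minus the second. For the LNCaP-labelled arrays against the VCaP-labelled arrays these were, at 0.5 µM, CDKN1A (0.57) and CDKN1C (3.43), and at 10 µM CCND1 (3.30), CCND3 (0.78), CDK4 (−0.49), CDKN1A (0.81) and CDKN1C (5.52). Of all probe sets, 3.49% and 9.86% were called in these 2 tests, and of all genes that reach the floor 8.68% and 21.8%.

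For the LNCaP-labelled arrays against PC3 they were CDK4 (−0.60) and CDKN1C (2.98) at 0.5 µM, and CDK4 (−0.64), CDKN1A (0.46), CDKN1B (0.60) and CDKN1C (4.87) at 10 µM, against 3.97% and 12.5% of probe sets and 8.82% and 26.2% of genes that reach the floor. For the LNCaP-labelled arrays against NCI-H660 they were CCND1 (2.66), CDK4 (−0.78) and CDKN1C (3.22) at 0.5 µM, and CCND1 (3.65), CDK4 (−1.15), CDKN1B (0.61) and CDKN1C (6.43) at 10 µM, against 5.86% and 16.9% of probe sets and 12.9% and 33.6% of genes that reach the floor. The signals of the main CCND1 probe set in NCI-H660 were all under the floor, so its CCND1 differences from that line have no settled size.

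For the VCaP-labelled arrays against PC3 they were CCND3 (−0.57) at 0.5 µM and CDK6 (2.60) at 10 µM, against 3.20% and 7.95% of probe sets and 7.36% and 17.1% of genes that reach the floor. The main CDK6 probe set was under the floor on every array labelled VCaP. For the VCaP-labelled arrays against NCI-H660 the differences were CCND3 (−0.53), CDK4 (−0.67) and CDKN1C (0.91) at 10 µM, against 12.7% of probe sets and 26.1% of genes that reach the floor. For PC3 against NCI-H660 they were CDK4 (−0.52) and CDKN1C (1.56) at 10 µM, against 5.18% of probe sets and 11.3% of genes that reach the floor. These CDKN1C differences are those of its main probe set, which averaged 333 in vehicle and 394 at 10 µM on the VCaP-labelled arrays. Its other probe sets that reach the floor averaged 141, 151 and 108.5 in vehicle there, and 115, 116 and 91.2 at 10 µM. In PC3 their changes at 10 µM were not called.

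Of the 27 differences, 16 kept their call when any 1 array was left out, with median centring, with the replicate number as a block and at an adjusted p under 0.05. The 11 others each lost it without at least 1 single array. With the block 6 of these 11 were lost, namely CDKN1A at 0.5 µM and CDK4 at 10 µM between the LNCaP-labelled and VCaP-labelled arrays, CDKN1A at 10 µM between the LNCaP-labelled arrays and PC3, CCND3 at 0.5 µM between the VCaP-labelled arrays and PC3, CDKN1C at 10 µM between the VCaP-labelled arrays and NCI-H660, and CDK4 at 10 µM between PC3 and NCI-H660. Median centring lost 8 and the adjusted p under 0.05 lost 6 of the 11. All of these checks kept the main probe set of each gene.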

How the results depend on the processing

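The difference of the CCND1 responses at 0.5 µM (1.37, adjusted p = 0.476) was called with both lines fitted without the others (1.37, adjusted p = 0.0392), with NCI-H660 left out (1.37, adjusted p = 0.00820) and with 16 added (1.36, adjusted p = 0.00841). The count of members called in PC3 at 0.5 µM, 2, became 1 at an adjusted p under 0.05 or with the mean over probe sets, and 0 with the line fitted alone, median centring, NCI-H660 left out or the replicate block. That at 10 µM, 6, became 1 fitted alone and 3 with the mean over probe sets. On the VCaP-labelled arrays the 3 calls at 0.5 µM became 1 at an adjusted p under 0.05, with median centring or with the block, 0 fitted alone and 5 with 16 added. The CCND3 rise at 10 µM on the LNCaP-labelled arrays turned to −0.84 with the mean over probe sets, which averages in a probe set under the floor in every group, and its difference from the VCaP-labelled arrays to −0.81. With 16 added, the CCND1 difference between the VCaP-labelled arrays and NCI-H660 at 10 µM, uncalled at 0.35, was −1.08. No other setting turned a called value round.

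Leaving out 1 array at a time gave 1.30 to 1.44 and 3.13 to 3.47 for the CCND1 differences at 0.5 and 10 µM. Member counts ran from 3 to 4 and 6 to 7 on the LNCaP-labelled arrays, 1 to 4 and 2 to 3 on the VCaP-labelled arrays, 0 to 2 and 3 to 6 in PC3, and 0 to 0 and 3 to 4 in NCI-H660, at 0.5 and 10 µM. Same-numbered arrays shared only a number (correlations of deviations −0.08 to 0.11). With the replicate number as a block, 5 of the 72 member changes lost their call, 1 gained it (CCND1 on the LNCaP-labelled arrays at 10 µM, adjusted p = 0.0536), and calls over all probe sets at 0.5 µM went from 2402 to 1540 in PC3 and from 1558 to 912 in NCI-H660. With each line fitted alone, on few degrees of freedom, 14 member calls were lost and 2 gained. The median change of all probe sets was 0.15 and 0.12 on the LNCaP-labelled arrays and 0.12 at 10 µM on the VCaP-labelled arrays, against −0.03, −0.01 and −0.02 after median centring, which lost 7 member calls and reversed none. Signals near the floor limit CCND2, and CDK6 outside PC3. Cells in these lines were sampled at 24 hours only.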

Other observations

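The genes whose 12 group mean log2 signals were most alike to a member, among 14407 genes above the floor, are given as a description; the 12 means come from 4 lines, so line differences carry most of each correlation. For CCND1 they were EVPL, UQCRC1 and LYPLA2 (Pearson r 0.986, 0.981 and 0.979), for CCND3 DOCK4, ZNF766 and PLA2G15 (0.985, 0.947 and 0.946), for CDK4 WDR18, TMEM97 and COA6 (0.954, 0.952 and 0.940) and for CDK6 ADGRF1, GSTM1 and THSD4 (0.982, 0.961 and 0.957). For the inhibitors they were SOCS7, UBE2B and TMX4 with CDKN1A (0.970, 0.951 and 0.948), KDM4B, RAB28 and RFX3 with CDKN1B (0.992, 0.991 and 0.984), TBC1D12, MT1E and MORC3 with CDKN1C (0.967, 0.930 and 0.925), and CLK4, KDM3A and FGF9 with CDKN2D (0.978, 0.974 and 0.970). For CCND2, near the floor, they were PPP1R26-AS1, GARIN4 and RPP30 (0.888, 0.857 and 0.847).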
